A study of Mus musculus with 14 samples.

Results

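The 9 genes described here, Fkbp5, Sgk1, Tsc22d3, Mt1, Mt2, Errfi1, Nfkbia, Zbtb16 and Pdk4, are induced by glucocorticoids in many tissues. They were taken by name, as every probe set whose platform symbol is 1 of these 9 genes, which gave 18 of the 22626 probe sets tested. Expression was measured by microarray of total RNA from striatum, in R6/2 mice and in wild-type controls at 6 weeks of age, on a CBAxC57BL/6 background. R6/2 mice carry a transgene with the first exon of human HTT and an expanded CAG repeat, driven by the human HTT promoter, and model Huntington disease through this fragment rather than the whole protein. Every mouse had received normal saline between 30 and 60 minutes before death, as a control of a drug study. Titles starting M.C marked 4 R6/2 and 4 wild-type arrays, and titles starting Mith marked 3 R6/2 and 3 wild-type arrays, and these sets are called cohorts here. No uninjected mice were analysed here, so neither the response to injection nor the resting level of these genes could be measured. Whether 1 animal gave 1 array is not in the labels, so the p-values here reflect spread over arrays, and the number of arrays limits the precision.

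Glucocorticoids are adrenal steroid hormones that rise with stress, handling and injection and with the time of day. They bind the glucocorticoid receptor, the product of Nr3c1, which is held in the cytoplasm by heat shock proteins and co-chaperones, moves to the nucleus and binds glucocorticoid response elements (GREs) near its target genes. In brain, neurons, glia and vessel cells all respond, and several targets rise within an hour. Fkbp5 encodes a co-chaperone that lowers the hormone affinity of the receptor, and Tsc22d3 encodes GILZ, a leucine zipper protein that restrains inflammatory transcription factors. Sgk1 encodes a serine/threonine kinase that acts on ion channels and transporters. Mt1 and Mt2 encode metallothioneins, small proteins that bind zinc and copper and are also induced through metal response elements (MREs).

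Promoter stretches are shown for Sgk1, the member with the largest genotype difference and cohort difference, and for Mt1 and Mt2, the pair with the highest correlation between members, a choice made after the values were seen. They are taken from RefSeq on mouse build GRCm38.p6, where 8 of the 9 genes have 16 start sites with a window of 250 bases before to 50 bases after the start. Capitals mark a match to the GRE palindrome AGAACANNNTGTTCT in Sgk1 and to the MRE core, TGCACNC or TGCGCNC on either strand, in Mt1 and Mt2. The Sgk1 stretch is chr10:21993640-21993789 on the plus strand. The Mt1 stretch is chr8:94178929-94179088 and the Mt2 stretch is chr8:94172458-94172617, both on the plus strand and both ending at the base before the start.
Sgk1: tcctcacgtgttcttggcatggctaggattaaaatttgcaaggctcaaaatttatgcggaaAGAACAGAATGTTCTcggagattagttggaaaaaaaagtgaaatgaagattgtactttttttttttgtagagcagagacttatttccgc
Mt1: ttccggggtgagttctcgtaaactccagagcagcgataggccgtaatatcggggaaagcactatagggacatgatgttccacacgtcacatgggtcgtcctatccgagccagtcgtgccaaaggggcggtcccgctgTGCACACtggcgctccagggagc
Mt2: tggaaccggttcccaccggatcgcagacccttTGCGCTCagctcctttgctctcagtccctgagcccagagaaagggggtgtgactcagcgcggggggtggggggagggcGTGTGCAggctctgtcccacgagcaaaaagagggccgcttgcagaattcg

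The palindrome was found in 3 of 32851 promoter windows of all genes, 0.00913%, and 1 of the 3 is the Sgk1 window shown. That match lies at bases -189 to -175 of 1 of the 6 Sgk1 starts. A single arm of the palindrome, AGAACA on either strand, occurs in 19.0% of all windows and among the members in Sgk1 and Tsc22d3. Matches to the arm include those within the palindrome. The MRE core occurs in 25.7% of all windows, and 4 or more matches occur in 0.517%. Mt2 has 4 matches and Mt1 has 3 over their whole windows, while Sgk1 and Nfkbia have 1 each. A match describes letters in this window and is not evidence of binding.

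No member passed the test between genotypes. Over both cohorts, with cohort as a term in limma, 0 of 18 probe sets had a Benjamini-Hochberg adjusted p under 0.05, against 2.55% of all probe sets, and 2 had an unadjusted p under 0.05, against 15.2% of all. Of the 18, 7 were higher and 11 lower in R6/2, with a median log2 change of -0.02 (0.01 over all probe sets) and a range of -0.34 to 0.19. The 95% intervals of all 18 lay between -0.55 and 0.35. Within M.C, 0 of 18 were called, against 3.21% of all, and within Mith 0 of 18, against 0.0221%. With 1 array left out in turn, the 727 probe sets called in M.C became 368 (without wild-type 4) to 819 (without R6/2 4), and the 5 in Mith became 0 (without R6/2 7 or wild-type 7) to 176 (without wild-type 5). At an unadjusted p under 0.05 the members numbered 3 in M.C, against 16.7% of all, and 0 in Mith, against 9.8%. No member passed the test of whether the genotype change differs between cohorts, limma's interaction contrast, which called 0% of all probe sets. Pdk4 alone had an unadjusted p under 0.05 there, against 9.78% of all probe sets, at -0.26 ± 0.12 (SE) for the M.C minus the Mith change.

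Markers and RNA quality moved with genotype on these arrays. All 5 measured striatal projection neuron markers were called lower in R6/2 (median log2 change -0.80). All 7 oligodendrocyte markers were lower, 5 of them called (median -0.35). All 8 astrocyte markers were lower over both cohorts, with 0 called (median -0.21), and in M.C 7 were lower, 2 of them called. Mean log2 levels of the astrocyte list in M.C were 8.22 to 8.38 for R6/2 and 8.55 to 8.69 for wild-type arrays, without overlap. In Mith these were 8.36 to 8.63 for R6/2 and 8.54 to 8.79 for wild-type arrays, with overlap. The mean log2 level of the projection neuron markers was 9.59 to 9.997 on the R6/2 arrays and 10.75 to 10.94 on the wild-type arrays of M.C. In Mith it was 9.70 to 9.997 on the R6/2 arrays and 9.94 to 10.54 on the wild-type arrays, so markers of the labelled tissue were present on every array. For the oligodendrocyte list the level was 9.26 to 9.50 in R6/2 and 9.53 to 10.02 in wild-type arrays of M.C, and 9.89 to 10.24 in R6/2 and 10.39 to 10.54 in wild-type arrays of Mith. Of 6 thalamus markers 0 were called by genotype over both cohorts (median -0.29), though 5 were lower in R6/2. Within Mith all 6 were lower (median -0.61), while M.C had 3 lower and 3 higher (median 0.01). Thalamus list levels in Mith ran from 7.72 to 8.21 for R6/2 and from 8.19 to 8.91 for wild-type arrays, overlapping at the edge. The part of these differences in the members' genotype results was not tested, apart from the Actb and oligodendrocyte covariate fits given below. Relations of members with the marker lists, also given below, used deviations within groups and so cannot address the genotype difference. The Actb control's 3′ minus 5′ signal was higher in R6/2 by 0.24 log2 (exact two-sided permutation within cohorts, p = 0.0186) and the Gapdh control's by 0.19 (exact p = 0.0143). In such bulk RNA, fewer cells of a type and less RNA per cell cannot be told apart. The array of R6/2 replicate 4 was unlike the rest of M.C: its Spearman correlation with them averaged 0.981, against 0.986 to 0.992 for the other 13 arrays within their cohorts.

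Sgk1 showed the largest difference between genotypes. Its log2 signal was 7.01, 6.90, 7.51 and 6.81 on the R6/2 arrays of M.C, against 7.44, 7.31, 7.39 and 7.61 on the wild-type arrays. Of the R6/2 arrays, replicate 3 alone reached into the wild-type values, and the others lay below all of them. In Mith, Sgk1 had 7.87, 7.97 and 8.06 on the R6/2 arrays, against 8.04, 8.54 and 8.21 on the wild-type arrays. There the highest R6/2 array lay just above the lowest wild-type array, so the groups overlapped in both cohorts. The log2 change over both cohorts was -0.34 ± 0.10 (SE, 7 arrays per genotype), 78.8% of the wild-type signal, with an interval of -0.55 to -0.14. The limma adjusted p was 0.0753, short of the threshold, and the exact two-sided permutation p for this gene alone, unadjusted, was 0.0171. The changes were -0.38 in M.C (limma adjusted p = 0.146) and -0.30 in Mith (adjusted p = 0.559). It passed when R6/2 replicate 3 was left out (-0.42, limma adjusted p = 0.0169) or wild-type replicate 5 (-0.39, adjusted p = 0.0371). Without R6/2 replicate 4 it was -0.30 (limma adjusted p = 0.1002), and with the Actb difference in the fit -0.37 (adjusted p = 0.289). With the oligodendrocyte mean as a covariate, an alternative chosen after the data were seen, the change was -0.17 and its SE grew to 0.18 (limma adjusted p = 0.890).

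**Figure D1:**
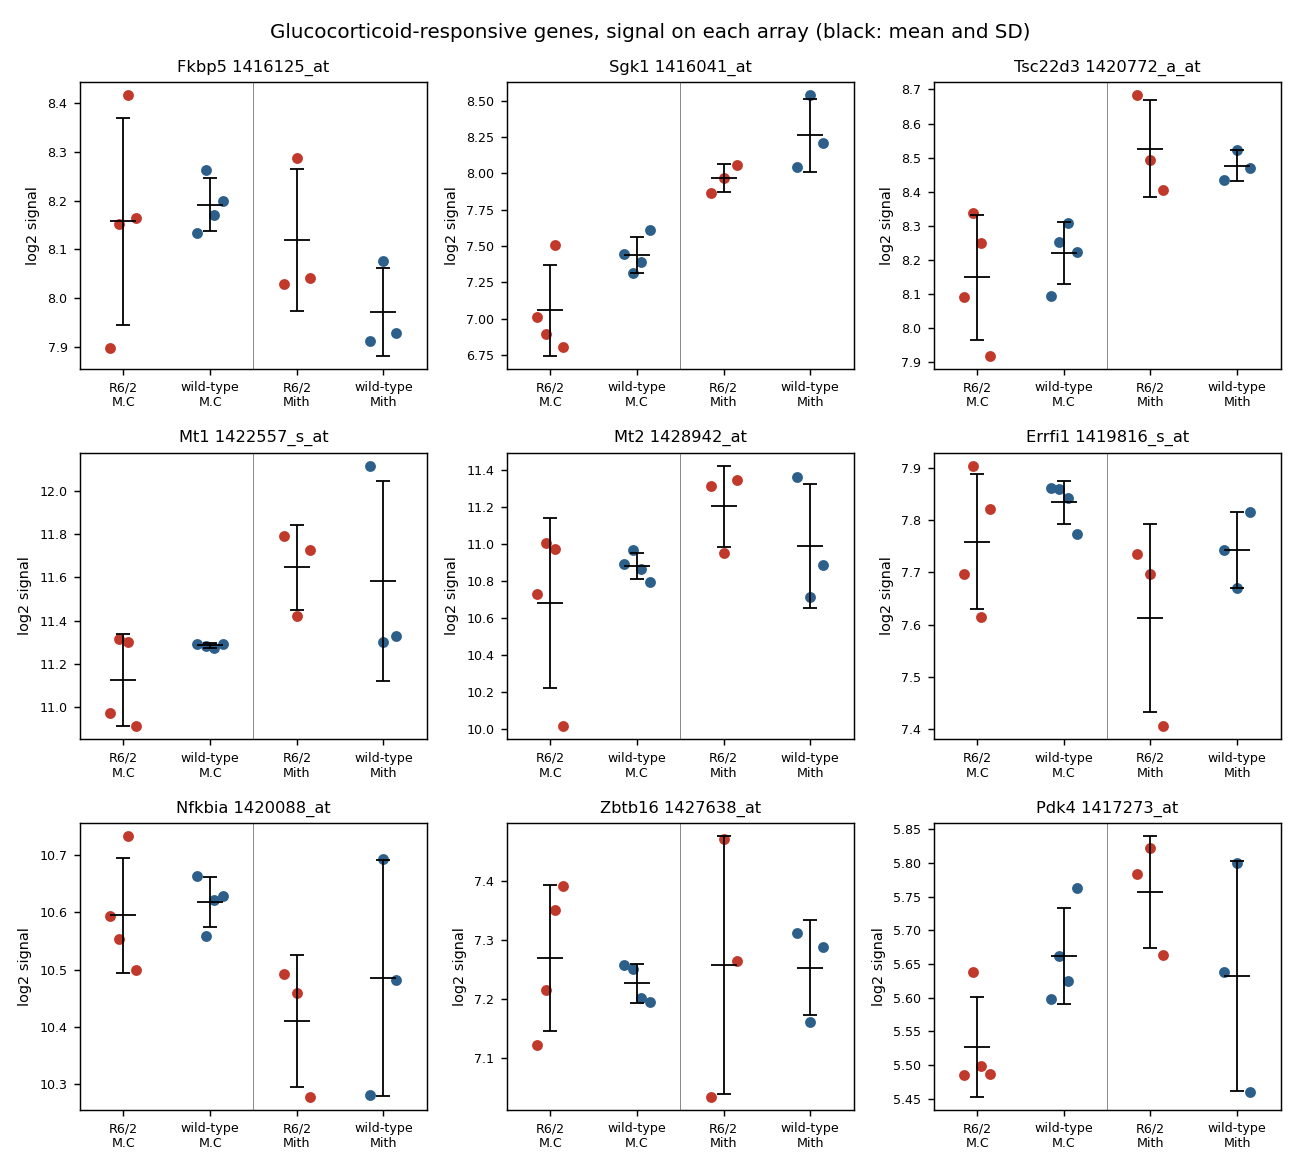
Log2 signal (vertical axes) of each of the 9 genes on every array, by genotype and cohort, for the probe set of highest mean signal; black bars give the mean and SD of 4 (M.C) or 3 (Mith) arrays. The Sgk1 mean is lower in R6/2 in both cohorts, with groups that overlap, and all of its M.C arrays sit below all of its Mith arrays.

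For Fkbp5, the co-chaperone gene, and Tsc22d3, the GILZ gene, no probe set passed the test. Fkbp5 (1416125_at) had 7.90, 8.15, 8.42 and 8.16 on the R6/2 arrays of M.C, against 8.13, 8.26, 8.17 and 8.20 on the wild-type arrays. In Mith it had 8.03, 8.29 and 8.04 in R6/2, against 7.91, 8.08 and 7.93 in wild-type mice. The R6/2 arrays of M.C spread to both sides of the wild-type ones, and the Mith groups overlapped. The change over both cohorts was 0.04 ± 0.07 (SE), and its interval of -0.11 to 0.20 holds both small falls and small rises. The second Fkbp5 probe set, 1448231_at, had 8.04, 7.93, 8.04 and 8.50 on the R6/2 arrays of M.C, against 8.03, 8.01, 8.07 and 8.06 on the wild-type arrays. The Mith arrays had 7.89, 8.14 and 8.17 in R6/2, against 7.90, 8.07 and 8.17 in wild-type mice. R6/2 replicate 4 was the highest of all arrays, and the change of 0.06 ± 0.08 was -0.01 without it.

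Tsc22d3 has 3 probe sets, which did not share a direction. Probe set 1425281_a_at had 7.44, 7.59, 7.43 and 7.06 on the R6/2 arrays of M.C, against 7.52, 7.50, 7.75 and 7.72 on the wild-type arrays. Mith values were 8.14, 7.99 and 8.11 in R6/2, against 7.88, 8.34 and 8.21 in wild-type mice. R6/2 values were mostly the lower ones in M.C, where the groups overlapped by 1 R6/2 array, and were mixed in Mith. The log2 changes over both cohorts were -0.17 ± 0.09 for this probe set (limma adjusted p = 0.377), -0.02 ± 0.07 for 1420772_a_at and 0.12 ± 0.06 for 1425557_x_at (adjusted p = 0.362). The x in the last name marks probes that can bind related transcripts.

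The metallothioneins overlapped between genotypes in both cohorts. Mt1 (1422557_s_at, where s marks probes shared by several transcripts) had 10.98, 11.32, 11.30 and 10.91 on the R6/2 arrays of M.C, against 11.29, 11.28, 11.27 and 11.29 on the wild-type arrays. In Mith it had 11.79, 11.42 and 11.73 in R6/2, against 12.11, 11.30 and 11.33 in wild-type mice. The wild-type arrays of M.C were nearly level while R6/2 replicates 1 and 4 lay below them, and in Mith wild-type replicate 5 was higher than every other array. Mt2 had 10.73, 11.005, 10.97 and 10.01 on the R6/2 arrays of M.C, against 10.89, 10.97, 10.86 and 10.79 on the wild-type arrays. The Mith arrays had 11.31, 10.95 and 11.34 in R6/2, against 11.36, 10.71 and 10.89 in wild-type mice. The lowest Mt2 value belonged to R6/2 replicate 4, and the change of -0.02 ± 0.14 became 0.11 ± 0.10 without it. The Mt1 probe sets gave -0.06 ± 0.11 (1422557_s_at, mean log2 signal 11.38) and -0.05 ± 0.05 (1451612_at, much dimmer at 6.59).

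Nfkbia encodes the inhibitor that holds NF-kappaB in the cytoplasm, and its 4 probe sets split in sign. Probe set 1420089_at had 7.07, 6.87, 6.90 and 7.29 on the R6/2 arrays of M.C, against 6.87, 6.79, 6.75 and 6.52 on the wild-type arrays. Mith values were 6.87, 6.89 and 6.77 in R6/2, against 6.85, 6.77 and 6.79 in wild-type mice. In M.C every R6/2 array lay above every wild-type array, by a margin lost in the rounding, as in 11.2% of all probe sets (in either direction), and it was the only member probe set of 18 to do so. The Mith groups overlapped, as they did for all 18 member probe sets, against 12.9% of all probe sets that did not overlap there. Over both cohorts the change was 0.19 ± 0.08 (limma adjusted p = 0.231; exact two-sided permutation p = 0.0114, unadjusted). The brightest Nfkbia probe set, 1420088_at, had 10.59, 10.55, 10.73 and 10.50 on the R6/2 arrays of M.C, against 10.66, 10.56, 10.62 and 10.63 on the wild-type arrays. In Mith it had 10.49, 10.46 and 10.28 in R6/2, against 10.28, 10.69 and 10.48 in wild-type mice. Its genotype groups overlapped in both cohorts. The other Nfkbia probe sets gave 0.13 ± 0.09 (1448306_at), -0.05 ± 0.06 (1420088_at) and -0.04 ± 0.06 (1449731_s_at), so no direction can be given for the gene.

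Pdk4 encodes a kinase that shuts down pyruvate dehydrogenase and so spares glucose, and it had 5.49, 5.64, 5.50 and 5.49 on the R6/2 arrays of M.C, against 5.60, 5.66, 5.63 and 5.76 on the wild-type arrays. The Mith arrays had 5.78, 5.82 and 5.66 in R6/2, against 5.64, 5.80 and 5.46 in wild-type mice. The R6/2 arrays were mostly the lower ones in M.C and the higher ones in Mith, with overlap in both, and the changes were -0.14 ± 0.08 and 0.12 ± 0.09. This probe set was dim, with a mean log2 signal of 5.64 at percentile 18.9 of all probe sets, and its detection could not be judged.

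Errfi1 encodes a feedback inhibitor of the epidermal growth factor receptor. Its probe set 1416129_at had 7.50, 7.72, 7.48 and 7.34 on the R6/2 arrays of M.C, against 7.37, 7.36, 7.57 and 7.76 on the wild-type arrays. Mith values were 7.78, 7.73 and 7.99 in R6/2, against 7.93, 7.67 and 7.80 in wild-type mice. Values of the genotypes were interleaved in both cohorts. The second, 1419816_s_at, had 7.70, 7.90, 7.61 and 7.82 on the R6/2 arrays of M.C, against 7.86, 7.86, 7.84 and 7.77 on the wild-type arrays. In Mith it had 7.73, 7.70 and 7.41 in R6/2, against 7.74, 7.67 and 7.82 in wild-type mice. These overlapped too, with R6/2 replicate 7 the lowest of all arrays. Errfi1 gave changes of 0.01 ± 0.08 (1416129_at) and -0.10 ± 0.06 (1419816_s_at) over both cohorts. Zbtb16, which encodes the zinc finger repressor PLZF, had 7.12, 7.22, 7.35 and 7.39 on the R6/2 arrays of M.C, against 7.26, 7.25, 7.20 and 7.20 on the wild-type arrays (1427638_at). The Mith arrays had 7.03, 7.47 and 7.27 in R6/2, against 7.31, 7.16 and 7.29 in wild-type mice. The R6/2 arrays spread to both sides of the wild-type arrays in each cohort. The changes of Zbtb16 were 0.03 ± 0.07 (1427638_at) and -0.04 ± 0.09 (1419874_x_at).

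**Figure D2:**
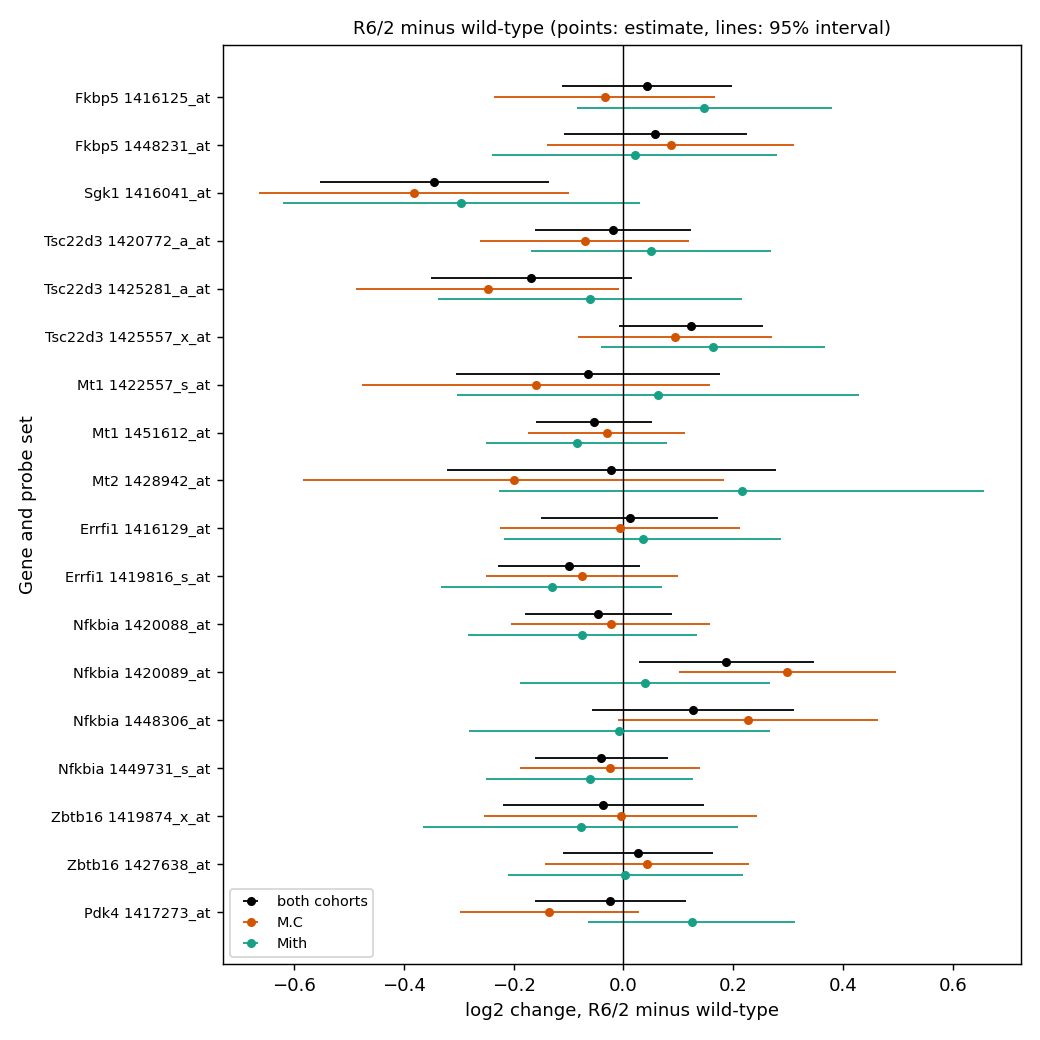
Log2 change, R6/2 minus wild-type (horizontal axis), of all 18 probe sets with 95% intervals, over both cohorts (black), in M.C (orange) and in Mith (green). Over both cohorts only the intervals of Sgk1 and of Nfkbia 1420089_at leave out 0, and neither passed after adjustment over all probe sets.

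Between cohorts, 6 of the 18 probe sets, from 4 genes, differed, and all 6 were lower in M.C than in Mith with genotype as a term. Of all probe sets 32.3% were called in either direction, close to 6 of 18, and 17% were called lower, a smaller share than 6 of 18. At an unadjusted p under 0.05 the members numbered 9, against 42.6% of all. The largest difference was that of Sgk1, at -0.87 ± 0.10 (limma adjusted p = 1.25e-05), with M.C arrays at 6.81 to 7.61 and Mith arrays at 7.87 to 8.54. All 3 Tsc22d3 probe sets were lower. Probe set 1425281_a_at spanned 7.06 to 7.75 in M.C and 7.88 to 8.34 in Mith (-0.61 ± 0.09), and 1420772_a_at spanned 7.92 to 8.34 in M.C and 8.40 to 8.68 in Mith (-0.32 ± 0.07), so neither overlapped. Probe set 1425557_x_at spanned 6.61 to 6.93 in M.C and 6.92 to 7.29 in Mith, an overlap at the edge (-0.27 ± 0.06). Mt1 1422557_s_at (-0.41 ± 0.11, limma adjusted p = 0.0118) and Errfi1 1416129_at (-0.31 ± 0.08, adjusted p = 0.00605) were the others, both with overlap, at 10.91 to 11.32 in M.C and 11.30 to 12.11 in Mith for Mt1 and at 7.34 to 7.76 in M.C and 7.67 to 7.99 in Mith for Errfi1. The second probe sets of Mt1 (-0.07) and Errfi1 (0.12) were not called. That of Mt1 was much dimmer than the first, at a mean log2 signal of 6.59 against 11.38. Groups did not overlap for 3 probe sets, Sgk1 and 2 of Tsc22d3, with M.C lower each time, against 8.98% of all probe sets (4.96% with M.C lower). Neither Fkbp5 probe set was called (0.13 ± 0.07 and 0.03 ± 0.08), nor was Mt2 (-0.32 ± 0.14, limma adjusted p = 0.104).

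Markers of other cell types and of a neighbouring region moved with the cohort difference. All 7 oligodendrocyte markers were called lower in M.C (median -0.84), with list levels of 9.26 to 10.02 in M.C and 9.89 to 10.54 in Mith. All 6 thalamus markers were lower, 5 of them called (median -0.96), with 7.31 to 7.69 in M.C and 7.72 to 8.91 in Mith. Of 8 blood vessel markers, 5 were higher in M.C, 4 of them called, and 3 were lower (median 0.12). The striatal projection neuron markers ran the other way, with 5 of 5 higher in M.C (median 0.26) and 1 of them called, the dopamine receptor gene Drd2 (0.47, limma adjusted p = 0.00398). Their list level was 9.59 to 9.997 in M.C and 9.70 to 9.997 in Mith on R6/2 arrays, and 10.75 to 10.94 in M.C and 9.94 to 10.54 in Mith on wild-type arrays, without overlap in wild-type alone. Their part in the result was not tested beyond 1 fit with the oligodendrocyte mean as a covariate, which called 1 of all 22626 probe sets and 0 members, with Sgk1 at -0.55 and Tsc22d3 1425281_a_at at -0.05. With R6/2 arrays alone 6 members were called and with wild-type arrays alone 2, Sgk1 (-0.82) and Tsc22d3 1425281_a_at (-0.52). Quantile normalization took Mt1 out (-0.11, limma adjusted p = 0.316) and brought Nfkbia 1420088_at in. Whatever else differed between the cohorts cannot be told apart from this difference.

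**Figure D3:**
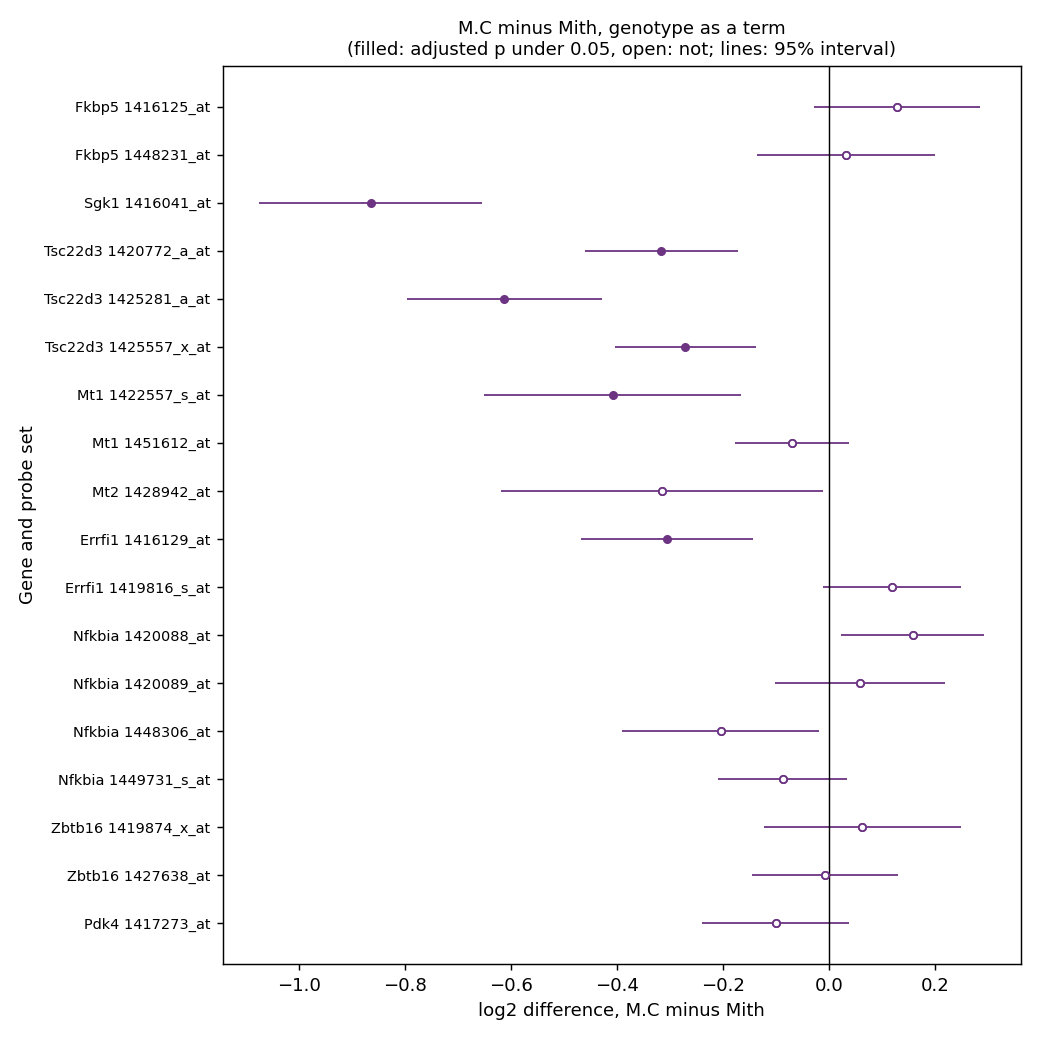
Log2 difference, M.C minus Mith with genotype as a term (horizontal axis), of the 18 probe sets with 95% intervals; filled points have an adjusted p under 0.05 and open points do not. The 6 filled points, Sgk1, 3 of Tsc22d3, and 1 each of Mt1 and Errfi1, lie below 0.

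Of 6 lists of genes that act around these members, each gene taken by its brightest probe set, the list of other glucocorticoid-responsive genes was the 1 with calls over both cohorts. In it 4 of 24 measured genes were called lower in R6/2 and 0 called higher, against 2.55% of all probe sets called and 2.19% called lower. By sign alone 17 were lower and 7 higher, with a median of -0.06 (0.01 over all genes). The 4 called were Dusp1, a phosphatase that inactivates MAP kinases (-0.41 ± 0.08, limma adjusted p = 0.0161), Gpd1, glycerol-3-phosphate dehydrogenase (-0.32 ± 0.07, adjusted p = 0.0167), the clock gene Per1 (-0.24 ± 0.06, adjusted p = 0.0324) and Ndrg2, an astrocyte-enriched gene (-0.40 ± 0.10, adjusted p = 0.0444). The other Gpd1 probe sets reached 0.07, so its direction depends on the probe set. None of the 4 was called without the cohort term, with the Actb covariate or with the oligodendrocyte covariate. Dusp1 and Gpd1 were called with each array left out in turn, while Per1 and Ndrg2 were both lost without R6/2 1, R6/2 7 or any of wild-type 1, 2, 3, 4 and 7. In M.C 5 genes of the list were called lower, and in Mith 0 of 24 were called. The 5 were Dusp1 (-0.53), Gpd1 (-0.41), Ndrg2 (-0.52), Ddit4, an inhibitor of mTORC1 (-0.51), and Rgs2, a regulator of G protein signalling (-0.69). In the same order, their log2 changes in Mith were -0.24, -0.21, -0.24, -0.10 and -0.02. Of all probe sets 3.21% were called in M.C, 2.94% were called lower there, and 0.0221% were called in Mith. Between cohorts 6 of the 24 were called lower in M.C, among them Dusp1 (-0.54), against 17% of all probe sets. The list was chosen with earlier results of these data known, so its counts beside these shares are a description only. The shares also take in dim probe sets, while each list gene stands by its brightest probe set. With only probe sets of above-median signal fitted, 574 were called, where 578 of all probe sets were. That fit tested fewer probe sets, so its 574 calls are a larger share of those tested than 2.55%. In it 5 of 17 measured list genes were called lower, to be read beside that larger share.

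The receptor gene gave different calls by probe set. The brightest of 3 Nr3c1 probe sets had a log2 signal of 8.35 ± 0.17 on the R6/2 arrays and 8.57 ± 0.18 on the wild-type arrays of M.C (SD, n = 4 each), and 8.39 ± 0.05 in R6/2 and 8.49 ± 0.08 in wild-type arrays of Mith (SD, n = 3 each). Its change over both cohorts was -0.16 ± 0.07 (limma adjusted p = 0.281), and its M.C minus Mith difference was 0.02. Nr3c1 probe set 1421866_at was called lower in R6/2, at -0.34 ± 0.08 (limma adjusted p = 0.0272), and 1460303_at was not, at -0.33 ± 0.10 (adjusted p = 0.0873). Nr3c1 probe set 1460303_at was called lower in R6/2 within M.C (-0.46, limma adjusted p = 0.0475) and lower in M.C than in Mith (-0.53, adjusted p = 0.000669). By their brightest probe sets 0 of 9 measured receptor and chaperone genes were called, and Ncoa2, a receptor coactivator, had the smallest p (-0.16, limma adjusted p = 0.225). None of 11 metal handling genes was called, where Fth1, the ferritin heavy chain (-0.16), and the zinc transporter gene Slc39a1 (0.12) had the smallest p. None of 13 NF-kappaB pathway genes was called either (median 0.06), where Rel (0.11) and Ikbkg (0.09) had the smallest p. Of 7 pyruvate dehydrogenase genes 0 were called, with Pdk1 (0.12) and Pdhb (0.13) first by p. Of 10 partners in SGK, TSC22 and ERBB signalling 0 were called over both cohorts. In M.C 2 were called lower, against 2.94% of all probe sets, which is a description only. These 2 were Nedd4l, a ubiquitin ligase that SGK1 phosphorylates (-0.50, limma adjusted p = 0.0267), and Pdpk1, the kinase that activates SGK1 (-0.48, adjusted p = 0.00643). In Mith these had values of -0.15 and 0.04. By p over both cohorts Nedd4l came first, at -0.35 ± 0.10 (limma adjusted p = 0.0616), and then Sgk3, a related kinase, at -0.19 ± 0.06 (adjusted p = 0.104).

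**Figure D4:**
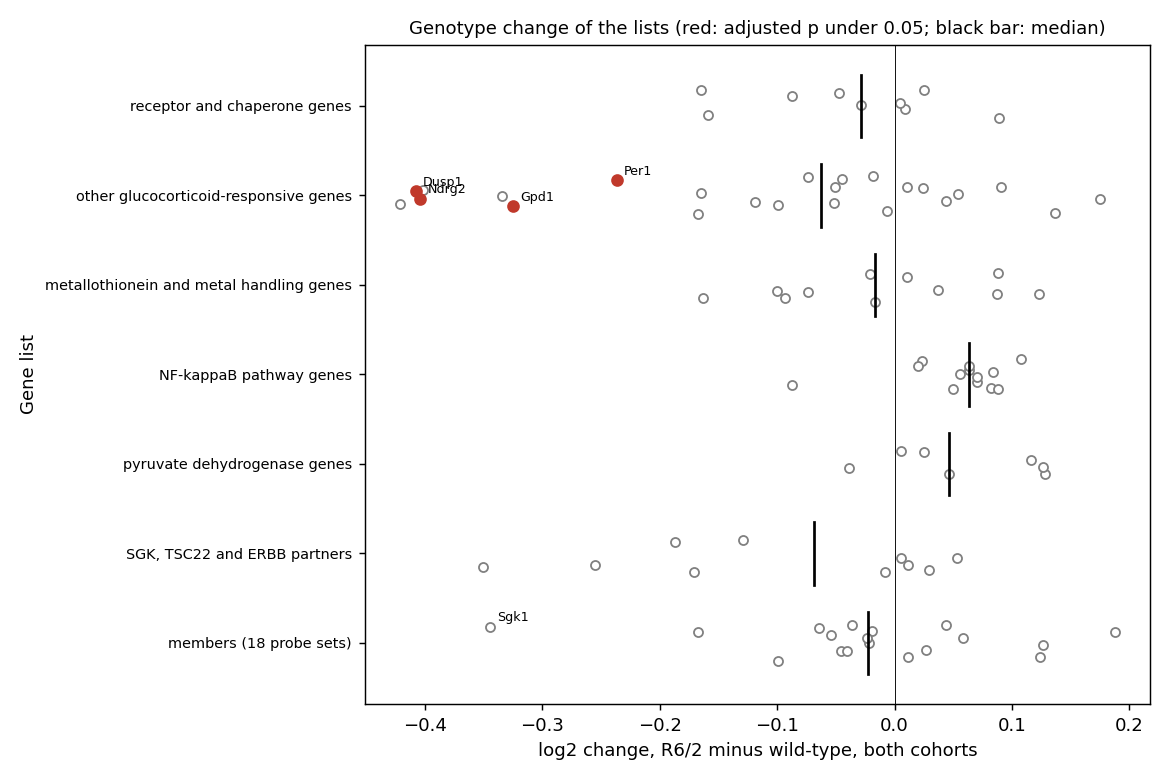
Log2 change, R6/2 minus wild-type over both cohorts (horizontal axis), of each measured gene of 6 lists and of the 18 member probe sets; red points have an adjusted p under 0.05 and black bars mark medians. Red points appear in the list of other glucocorticoid-responsive genes alone, to the left of 0.

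No pair of members passed a test of varying together between arrays. After subtraction of the mean of each genotype and cohort, the 36 pairs of members had a median Pearson r of 0.02 over 14 arrays, 18 of the 36 were positive, and 0 pairs passed after adjustment, with 3 at an unadjusted p under 0.05. By 1422557_s_at, whose probes several transcripts share, Mt1 had the highest r with Mt2, 0.80 (exact permutation within groups, p = 0.00376, adjusted p = 0.122; Spearman's rho 0.90, adjusted p = 0.255). It was 0.78 without the 2 arrays farthest from the Mt1 median, 0.83 within M.C and 0.96 within Mith. Sgk1 and Errfi1, by 1419816_s_at, had r = -0.68 (exact permutation adjusted p = 0.122; rho -0.62, adjusted p = 0.380), which was -0.56 without the 2 farthest arrays. The second Mt1 and Errfi1 probe sets, 1451612_at and 1416129_at, were not tested in pairs. These r therefore hold for the probe sets named and not for the genes. Sgk1 and Nfkbia had r = 0.69 (exact permutation adjusted p = 0.362; rho 0.66, adjusted p = 0.380), which dropped to 0.40. Of 90 relations of members with marker lists and RNA quality, 0 passed after adjustment (2 unadjusted, exact permutation).

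**Figure D5:**
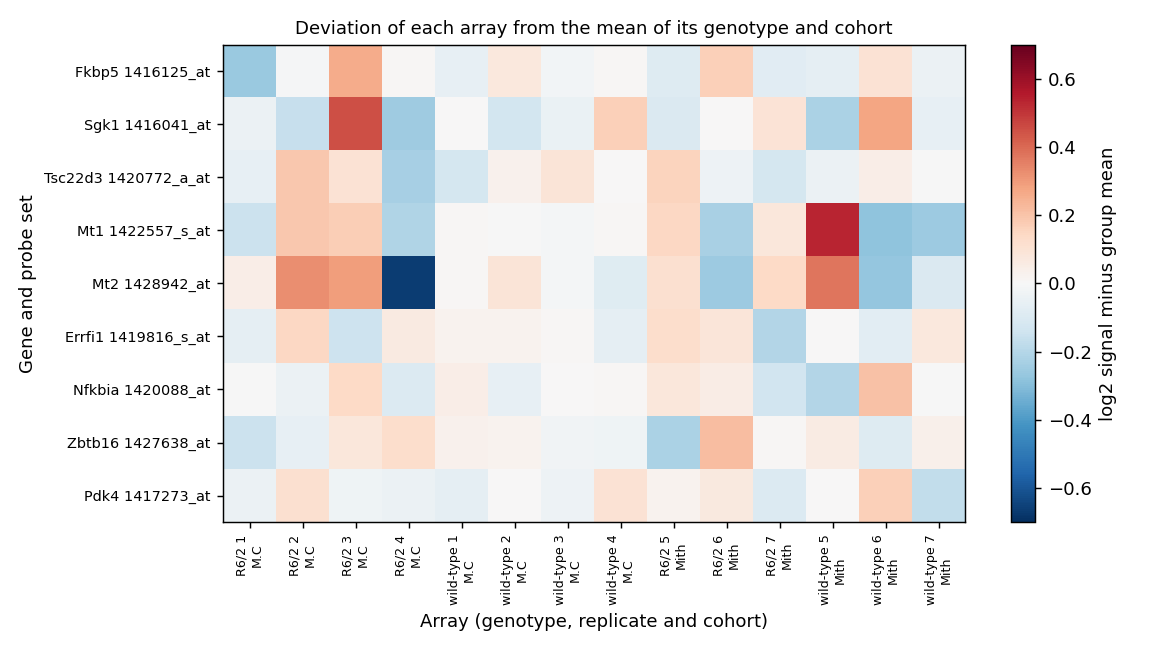
Deviation of each array's log2 signal from the mean of its genotype and cohort (colour, log2) for the 9 genes (rows, probe set of highest mean) and 14 arrays (columns). Mt2 of R6/2 replicate 4 is the darkest blue cell and Mt1 of wild-type replicate 5 the darkest red one. No array is of a single colour over all 9 genes, though R6/2 replicate 1 is below its group mean for 8 of them.

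By the same deviations over 14 arrays, the genes most like Sgk1 among 12392 others were Lmo7 (r = 0.92), Zswim6 (0.91), Galnt7 (0.87), Gnb5 (0.87) and Anks3 (0.85). For Tsc22d3 they were Agpat5 (0.95), Acadl (0.94), Uck1, Lrrc8a and Rbl2, the last of them at r = 0.92. For Fkbp5 they were Tmem37 and Psmd11 (0.84 each), Reg1, Cul9 and Dpyd, the last at r = 0.81. The 15 values are the highest of many and are given as a description. The points share their array and their RNA sample, and none of the 3 lists holds another member.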

How the data were processed

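The authors deposited log2 values of 22690 probe sets for 14 arrays; their background correction, probe summary and normalization are not stated per the file headers. Values ran from 2.96 to 14.5. Deposited array medians spanned 0.108 log2, so a constant per array brought all medians to the same value, and 64 control probe sets were left out. Symbols came from the platform table and were updated by gene ID (20380 probe sets with 1 symbol, 691 with several, 1555 unnamed).

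limma 3.58.1 in R 4.3.3 fitted genotype and cohort, and separately 4 group means for the cohorts alone and the interaction, two-sided, with Benjamini-Hochberg adjustment over 22626 probe sets and a call at an adjusted p under 0.05. Single values were also tested by exact permutation of genotype within cohorts (1400 arrangements), and pairs by 20736 within-group rearrangements. A list gene was represented by its brightest probe set, passing over _x_at and _s_at names where possible. Named list genes were those called with genotype, or else the 2 with the smallest p, with Nr3c1 always. The pipeline was tested on simulated data. Over both cohorts it called 28% of 50 changes of 0.25 log2 put in, and 92% of 50 changes of 0.5. A missing call therefore says little about a change near 0.25. Alternatives covered scaling, covariates, weights, variances, a brightness filter, each cohort alone and each array left out. The members and lists were chosen with earlier results of these data known. Replicates are numbered in accession order, 1 to 4 in M.C and 5 to 7 in Mith.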

Additional observations from a re-analysis of the deposited data

Results flagged for a closer look

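The Mt1 signal of wild-type replicate 5, a Mith array, lay far from the other wild-type arrays. Its log2 signal on 1422557_s_at was 12.1, which is 0.532 above the mean of its genotype and cohort, while the other 6 wild-type arrays deviated by -0.28 to 0.01. The gap to the nearest was 0.645 of the range of the 7 deviations, above Dixon's critical value at the 95% level. Among the 36 groups tested, chance alone would give 1.8 such values and 1 was found. Mt2 was also high on this array, at 11.36. Without this array the Mt1 change, R6/2 minus wild-type, was 0.02 in place of -0.06, and called in neither case. Its cause was not tested.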

How the results depend on the processing

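Over both cohorts 0 members were called under each of the 8 other settings, and 578 probe sets in all became 100 without the cohort term, 56 with the Actb covariate, 1333 with array weights and 2 with the oligodendrocyte covariate; the causes were not tested. Leaving out 1 array gave 280 to 879 probe sets and 0 to 1 members, and in M.C 0 to 1 members, each time Sgk1. Falls made up 85.8% of calls, 76.9% after quantile normalization, 78.4% as deposited, 91% without the cohort term, 96.4% with the Actb covariate and 0% of the 2 calls with the oligodendrocyte covariate. M.C minus Mith members numbered 6, where 7312 of all probe sets were called. With 1 array left out they numbered 6 to 8, where 5995 to 7708 of all were called. The contrast within wild-type gave 2, and the fit with the oligodendrocyte covariate gave 0. That covariate differs between both the cohorts and the genotypes, so its fit has wide errors.

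Of 138 member values under other settings 16 changed sign and 0 crossed the threshold, all from changes called in neither fit. After quantile normalization these were Tsc22d3 1420772_a_at (0.00289), Mt2 (0.0347) and Nfkbia 1420088_at (0.0113). With the Actb covariate they were Errfi1 1416129_at (-0.122) and Zbtb16 1419874_x_at (0.0337), and with array weights Mt2 (0.0449) and Zbtb16 1419874_x_at (0.0493). With the oligodendrocyte covariate they were Fkbp5 1448231_at (-0.0544), Tsc22d3 1420772_a_at (0.151) and 1425281_a_at (0.154), Mt1 1422557_s_at (0.0295), Mt2 (0.128), Nfkbia 1420088_at (0.0440) and 1420089_at (-0.0553), Zbtb16 1427638_at (-0.156) and Pdk4 (0.0369). With 1 array left out, 15 of 252 values changed sign. The ranges were -0.0247 to 0.0566 for Errfi1 1416129_at, -0.0100 to 0.0950 for Fkbp5 1448231_at, -0.0546 to 0.0267 for Tsc22d3 1420772_a_at, -0.0953 to 0.112 for Mt2, -0.0701 to 0.00394 for Pdk4, -0.0119 to 0.0705 for Zbtb16 1427638_at and -0.129 to 0.0234 for Mt1 1422557_s_at. The brightness filter left 12 of 18 member probe sets. No paired analysis was possible because replicate numbers follow accession order and title numbers are not shared between genotypes. The detection of dim probe sets could not be judged, since the deposited values carry no background.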
